A study of Mus musculus with 8 samples.

Results

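The CA1 pyramidal cell genes described here are Fibcd1, Mpped1, Wfs1, Pou3f1, Gpr161, Man1a and Lmo3. They are 7 genes that mark pyramidal neurons of hippocampal field CA1, and they were taken as every probe that carries one of these gene names on the array. They are 7 of 35715 gene names in the files and 9 of the 55681 probes that were not controls, since Man1a and Lmo3 had 2 probes each. RNA bound to tagged ribosomes was measured in the hippocampus of 8 naive adult C57BL/6 mice, each at least 3 months old, on 1-colour Agilent arrays with 1 array per mouse. The 4 conditional knockout (CKO) mice were Ctcf loxP/loxP, and the 4 wild-type (WT) mice carried wild-type Ctcf. Both groups were positive for Camk2a-Cre and for Ribotag, the allele Rpl22-tsam1.1Psam/J, and each held 3 males and 1 female. The series' design text gives the controls floxed alleles instead, and the groups here follow the labels of each mouse. CTCF is a DNA-binding factor with zinc fingers that anchors loops of chromatin. Camk2a-Cre acts in forebrain excitatory neurons, where the same recombinase deletes Ctcf in CKO mice and switches on the haemagglutinin tag of the ribosomal protein Rpl22 in both groups. The immunoprecipitate of a whole hippocampus pools CA1 with CA2, CA3 and the dentate gyrus, so fewer tagged CA1 cells and less ribosome-bound RNA per cell cannot be told apart.

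CA1 pyramidal neurons are the main output of the hippocampus. They receive input from CA3 through the Schaffer collaterals and from the entorhinal cortex, and project to the subiculum and beyond. Several transcripts distinguish them from dentate granule cells and from the pyramidal cells of CA2 and CA3. The 7 genes here do different work in the cell. Fibcd1 and Gpr161 encode membrane receptors, Wfs1 and Man1a proteins of the endoplasmic reticulum and Golgi, Pou3f1 and Lmo3 regulators of transcription, and Mpped1 a metallophosphoesterase whose role in neurons is little known.

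Each probe has 60 bases. The sequences below identify what was hybridised, and for Man1a and Lmo3 how the probes of one gene differ. They are 5′ to 3′ and printed in lower case, in full for Gpr161 and Man1a probe 2 and otherwise as the first 30 bases.
Fibcd1: atcgaaaatctttccaagcctaggttggct
Mpped1: aaagatggcggcctgctcctcaatcatttt
Wfs1: atctcttctgagtaccccaggacttgggaa
Pou3f1: ggagcttcccccttcaccatttcttcatct
Gpr161: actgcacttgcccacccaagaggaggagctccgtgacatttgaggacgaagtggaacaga
Man1a probe 1: cttttacccagtgaaaaaagcatttctgat
Man1a probe 2: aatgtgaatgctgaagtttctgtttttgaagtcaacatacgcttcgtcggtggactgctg
Lmo3 probe 1: gaagctgcagcgactcaggcacgcctcagt
Lmo3 probe 2: ttgtgtaaatgttgtccagatttctcccta
In the mouse build mm9 the whole probes lie at chr2:31669627-31669686 on the minus strand (Fibcd1), chr15:83688813-83688872 on the plus strand (Mpped1), chr5:37357424-37357483 on the minus strand (Wfs1), chr4:124337692-124337751 on the plus strand (Pou3f1) and chr1:167248934-167248993 on the plus strand (Gpr161). Man1a probe 1 lies at chr10:53626143-53626202, Lmo3 probe 1 at chr6:138369742-138369801 and Lmo3 probe 2 at chr6:138313467-138313526, all on the minus strand. The files give Man1a probe 2 no genome position. Both Man1a probes are annotated to the same transcript, NM_008548, whereas Lmo3 probe 1 is annotated to the predicted variant XM_006505339 and Lmo3 probe 2 to NM_207222. Exon and untranslated region boundaries were not used here, so the probes are not assigned to coding or untranslated sequence. GC content ran from 35% in Man1a probe 1 to 55% in Gpr161.

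Between 72.2% (CKO 3) and 81.5% (WT 1) of all probes were well above background. The arrays lay on 3 slides, with WT 1 alone on slide 1, CKO 1, CKO 2, WT 2 and WT 3 on slide 2, and CKO 3, CKO 4 and WT 4 on slide 3. Signals are given as normalized log2 signal, in which 0 is the 75th percentile of an array. Ctcf itself was at -2.55, -2.40, -1.96 and -2.01 in CKO 1 to 4, against -1.08, -1.72, -1.45 and -1.14 in WT 1 to 4. All 4 CKO mice lay below all WT mice, with a log2 difference of -0.88 ± 0.22 (SE, exact two-sided permutation p = 0.0286), the smallest p that 4 mice against 4 allow. The limma p adjusted over all probes was 0.733, so Ctcf did not pass. No source used here names the exons flanked by loxP, so the position of the probe relative to them is unknown.

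Detection of these genes was set beside that of other markers. All 7 were well above background on all 8 arrays, and so were the 7 other CA1 genes and the 8 excitatory neuron genes examined. Markers of other cells were present too. On all 8 arrays 5 of 6 astrocyte genes, 6 of 6 oligodendrocyte genes, 5 of 6 microglia genes and 7 of 8 interneuron genes were well above background, while the astrocyte gene Gja1 was not well above background on any array. The arrays thus measured transcripts of other cell types as well. Of the 55681 probes that were not controls, 38762 were well above background on all 8 arrays. Detection therefore does not show that the 7 genes report CA1.

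The comparison of genotypes asked whether CA1 genes differ on tagged ribosomes when Ctcf is deleted from these neurons. None of the 9 probes passed a limma adjusted p of 0.05, where 0 of the 44316 probes tested (0%) did. At an unadjusted limma p under 0.05 the count was again 0 of 9, against 2382 probes (5.38%) of all tested. In the alternatives the count moved, always with CKO higher. Fibcd1 had an unadjusted p under 0.05 in 6 of 26, Pou3f1 in 2 and Mpped1 in 1. These fell in 6 settings, in which the share of all probes higher at that p was 2.95% with normexp, 3.46% in the authors' deposited values, 3.41% with a trended and robust variance, 4.77% with array weights, 3.85% without WT 4 and 1.99% without CKO 4. Those 2382 were 896 higher and 1486 lower in CKO, and the split moved to 1135 and 946 with median scaling, 1093 and 796 after quantile normalization, 1309 and 790 after normexp correction followed by quantiles, and 1473 and 480 in the authors' deposited values. All 9 probes passed the filter on dim probes. With each gene represented by its brighter probe, 5 of 7 differences lay above 0 and 2 below, with a median of 0.30 and a range from -0.12 (Wfs1) to 0.45 (Fibcd1). Over all probes tested the median was -0.11 and 38.2% lay above 0. In the brightest 2 deciles of probes, where 4 of the 7 genes fall, 70.4% lay above 0. Without CKO 3, in which 4 of the 7 genes had their highest value, the median of the 7 was 0.13. CKO 3 also had the smallest share of probes well above background, and the part of this in the result was not tested.

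**Figure D1:**
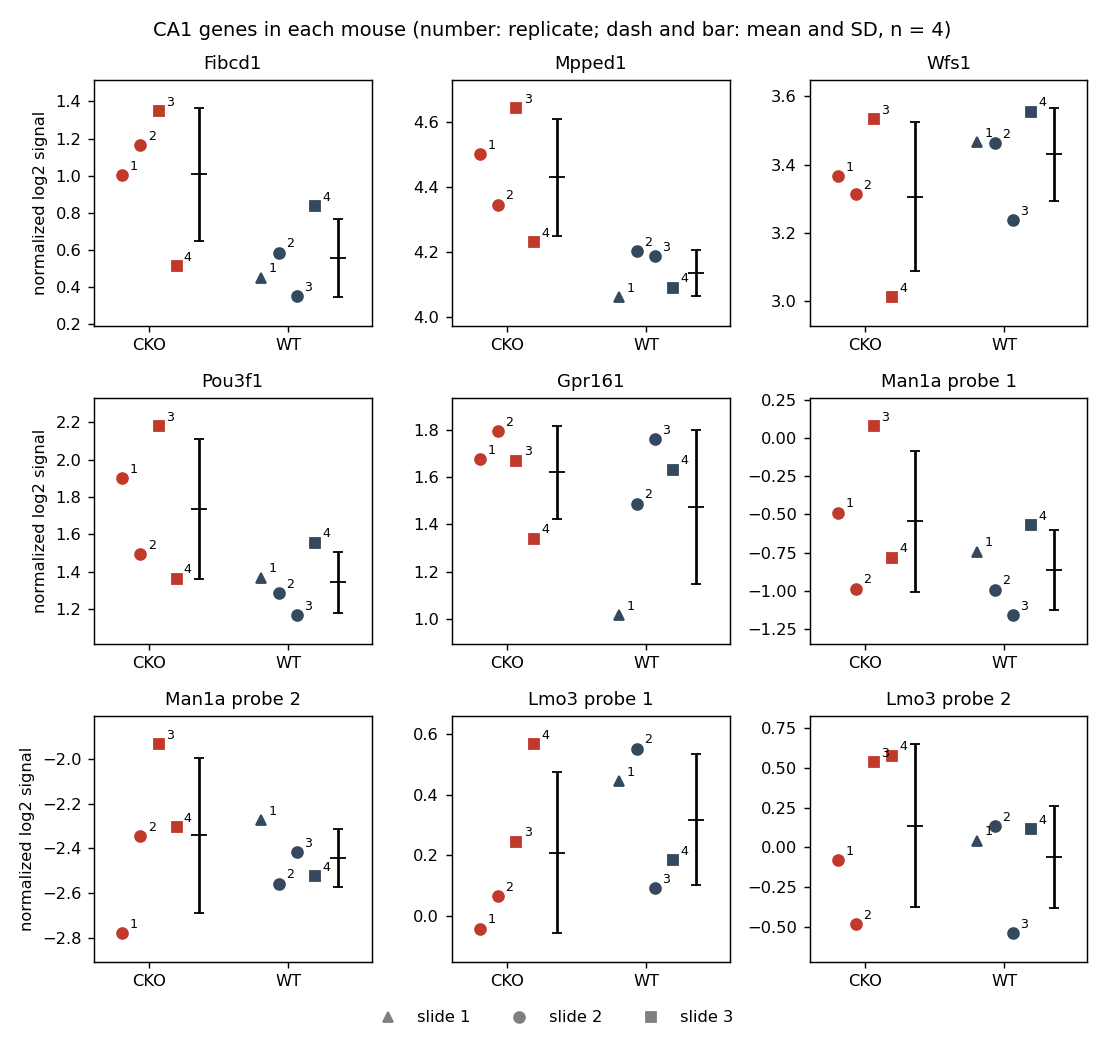
Normalized log2 signal (vertical axes, each with its own range) of the 9 probes in CKO and WT mice; numbers give the replicate, marker shapes the slide, and the dash with bars the mean and SD (n = 4). The groups are separate for Mpped1 alone, where the lowest CKO mouse is at 4.23 and the highest WT mouse at 4.20.

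Of the receptors, Fibcd1 had the largest difference of the 7. It encodes a transmembrane receptor with a fibrinogen-like domain that binds acetylated sugars such as chitin. Its normalized log2 signal was 1.00, 1.16, 1.35 and 0.51 in CKO 1 to 4, against 0.45, 0.58, 0.35 and 0.84 in WT 1 to 4. CKO 1, 2 and 3 lay above every WT mouse, whereas CKO 4 lay among them. CKO minus WT came to a log2 difference of 0.45 ± 0.22 (SE), or 137% of the WT signal, with a 95% confidence interval from -0.037 to 0.94 (exact permutation p = 0.0857, limma adjusted p = 0.733). Probes in the same decile of signal had a median difference of 0.036.

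Gpr161 encodes a receptor of the primary cilium that restrains hedgehog signalling through cyclic AMP. It was at 1.67, 1.80, 1.67 and 1.34 in CKO 1 to 4, against 1.02, 1.49, 1.76 and 1.63 in WT 1 to 4. The groups overlapped widely, and WT 1 was the lowest of the 8 mice. This gave a log2 difference of 0.15 ± 0.20 (SE), with a 95% confidence interval from -0.32 to 0.61 (exact permutation p = 0.514). Without WT 1 it was -0.0070. The median of probes in the signal decile of Gpr161 was 0.11. Of 8 further genes of the cilium and the hedgehog pathway 0 passed the limma test adjusted over all probes, and at an unadjusted p under 0.05, 1 was lower and 0 were higher, next to 3.35% lower and 2.02% higher over all probes. That gene was Gli3, a hedgehog transcription factor, with a log2 difference of -1.52 (exact permutation p = 0.0571). Its signal was well above background on 4 of 8 arrays, and probes of its signal decile had a median of -0.58. Tulp3, which carries Gpr161 into cilia, had 0.29. The median of the 8 was -0.027, and it ran from -0.14 without WT 4 to 0.12 with median scaling.

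Mpped1 was the single member whose groups did not overlap, next to 1.68% of all probes with all CKO above all WT and 3.3% with no overlap in either direction. The signal was 4.50, 4.35, 4.64 and 4.23 in CKO 1 to 4, against 4.06, 4.20, 4.19 and 4.09 in WT 1 to 4. The lowest CKO mouse was CKO 4 and the highest WT mouse WT 2, and the gap between them was 0.029. The log2 difference was 0.30 ± 0.15 (SE), or 123% of WT, with a 95% confidence interval from -0.052 to 0.64 (exact permutation p = 0.0286, limma adjusted p = 0.733). Probes of the same signal decile had a median of 0.15. Its relative Mpped2 had a difference of 0.27 with groups that overlapped. Of the 5 relatives of Mpped1 and Fibcd1 that were tested, 1 was above 0 and 0 passed, with a median of -0.27 that ran from -0.34 without WT 4 to -0.033 with quantile normalization and the slide as a block.

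Wfs1 encodes wolframin, a membrane protein of the endoplasmic reticulum whose loss causes Wolfram syndrome, and it is a widely used CA1 marker. Unlike most of the other members it did not lie higher in CKO. It was at 3.37, 3.31, 3.53 and 3.01 in CKO 1 to 4, against 3.47, 3.46, 3.24 and 3.55 in WT 1 to 4. CKO 4 was below every other mouse, and the other CKO mice lay within the WT range. The log2 difference was -0.12 ± 0.17 (SE), or 91.8% of WT, with a 95% confidence interval from -0.50 to 0.26 (exact permutation p = 0.371). The median of probes in its signal decile was 0.15, above the value of Wfs1. Relative to the median of all probes the Wfs1 difference was -0.017, and with median scaling it was 0.024. It was below 0 in 25 of 26 alternatives. The difference was -0.27 after quantile normalization, -0.26 with normexp and -0.34 in the authors' deposited values. Of 5 genes tied to Wfs1 or to stress of the endoplasmic reticulum 0 passed and 3 lay above 0, with a median of 0.069 that was 0.20 within slide 2, -0.42 within slide 3, -0.067 without CKO 3 and -0.078 without WT 2. Cisd2, the gene of the second form of Wolfram syndrome, had -0.30, the stress sensor Atf6 had -0.26 with all CKO mice below all WT mice, as in 1.62% of all probes, and the chaperone Hspa5 had 0.38.

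Man1a encodes a Golgi mannosidase that trims N-linked glycans. Probe 1 was at -0.49, -0.99, 0.076 and -0.78 in CKO 1 to 4, against -0.74, -0.99, -1.16 and -0.57 in WT 1 to 4. CKO 1 and CKO 3 lay above every WT mouse, while CKO 2 and CKO 4 lay among them. The log2 difference was 0.32 ± 0.25 (SE), or 125% of WT, with a 95% confidence interval from -0.26 to 0.90 (exact permutation p = 0.286). Without CKO 3 it was 0.11. Probe 2 was at -2.78, -2.35, -1.93 and -2.30 in CKO 1 to 4, against -2.27, -2.56, -2.42 and -2.52 in WT 1 to 4. CKO 1 was now the lowest of the 8 mice and CKO 3 again the highest, and the log2 difference was 0.10 ± 0.20 (SE, exact permutation p = 0.657). After each probe was centred on its own mean, the probes differed by a root mean square of 0.34 on the log2 scale over the 8 arrays, and most in CKO 1, by 0.61. Of 6 other genes of N-glycan trimming 5 lay above 0 and 0 passed, with a median of 0.12 that was 0.041 without CKO 3 and -0.013 within slide 3. Man1b1, which acts in the endoplasmic reticulum, had 0.46, and the Golgi mannosidase Man1c1 had -0.52 with an SE of 0.61.

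Pou3f1 encodes a POU-domain transcription factor, also known as Oct6 and best studied in Schwann cells. It was at 1.90, 1.49, 2.18 and 1.36 in CKO 1 to 4, against 1.37, 1.29, 1.17 and 1.56 in WT 1 to 4. CKO 1 and CKO 3 lay above every WT mouse, and CKO 2 and CKO 4 lay among them. Pou3f1 had a log2 difference of 0.39 ± 0.21 (SE), or 131% of WT, with a 95% confidence interval from -0.094 to 0.87 (exact permutation p = 0.143, limma adjusted p = 0.733). The median of probes in its signal decile was 0.11. Relatives of Pou3f1 of the same class had differences of 0.066 for Pou3f2, -0.0018 for Pou3f3 and -0.26 for Pou3f4, and none of the 3 passed. Whether Pou3f1 differs from them in its response was not tested.

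Lmo3 encodes a LIM-only protein, which joins transcription factor complexes without binding DNA itself. Probe 1 was at -0.040, 0.066, 0.25 and 0.57 in CKO 1 to 4, against 0.44, 0.55, 0.092 and 0.18 in WT 1 to 4. CKO 4 was the highest of the 8 mice and CKO 1 the lowest, so the groups overlapped fully. The log2 difference was -0.11 ± 0.19 (SE, exact permutation p = 0.571). Probe 2 was at -0.081, -0.48, 0.54 and 0.58 in CKO 1 to 4, against 0.042, 0.13, -0.54 and 0.11 in WT 1 to 4. It gave a log2 difference of the other sign, 0.20 ± 0.28 (SE, exact permutation p = 0.600). The centred probes differed by a root mean square of 0.30 over the 8 arrays, and most in CKO 3, by 0.52, so no direction can be given for Lmo3. Among 5 LIM-only relatives and LIM-binding partners 4 lay above 0, 0 passed, and 1 was higher at an unadjusted limma p under 0.05, next to 2.02% of all probes. That was Lmo4, with a log2 difference of 0.49 (exact permutation p = 0.0286) and all CKO mice above all WT mice, as in 1.68% of all probes, while the adaptor Ldb1 had -0.37 and Ldb2 had 0.42.

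**Figure D2:**
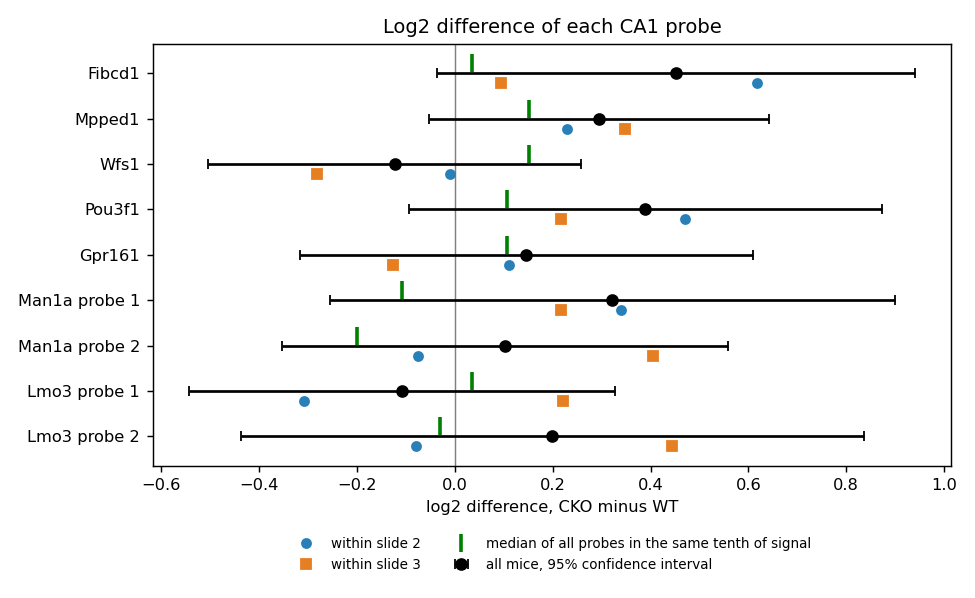
Log2 difference, CKO minus WT, of each probe (black, with its 95% confidence interval over all mice), the difference within slide 2 (blue) and within slide 3 (orange), and the median difference of all probes in the same decile of signal (green). All 9 intervals include 0.

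Differences between genotypes followed signal in these arrays, from a median of -0.58 in the dimmest decile of probes to 0.15 in the brightest. The difference of 5 of the 7 genes lay above the median of probes in the same decile of signal, and that of Wfs1 and Lmo3 below it. By definition such a median has as many probes above it as below. Of the 5, Gpr161 was at 0.15 ± 0.20 (SE) next to a decile median of 0.11. Slide 2 held 2 mice of each group and slide 3 held 2 CKO mice and WT 4, while slide 1 held no CKO mouse. Within slide 2 the log2 differences were 0.62 for Fibcd1, 0.23 for Mpped1, 0.47 for Pou3f1 and 0.34 for Man1a probe 1. Within slide 3 they were 0.094, 0.35, 0.22 and 0.22 for the same probes. Wfs1 was at -0.0096 within slide 2 and -0.28 within slide 3. Gpr161 was at 0.11 and -0.13, Man1a probe 2 at -0.076 and 0.41, Lmo3 probe 1 at -0.31 and 0.22, and Lmo3 probe 2 at -0.080 and 0.44. These 4 probes changed sign between slides. The median of the 7 genes was 0.23 within slide 2 and 0.22 within slide 3. Slide 3 has WT 4 alone on one side, which is assumed to vary like the other mice.

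Of the 7 genes, 4 were highest in CKO 3, and the share of all probes highest in that mouse was not counted. After each gene was centred on its mean over the 8 arrays, the median of the 7 was 0.22, -0.045, 0.36 and -0.18 in CKO 1 to 4, against -0.17, -0.081, -0.17 and 0.056 in WT 1 to 4. CKO 3 and CKO 1 lay above every WT mouse, and CKO 4 was the lowest, just below WT 1 and WT 3. CKO 3 also had the highest such median of the other CA1 genes, at 0.46, and of the excitatory neuron genes, at 0.40. The medians of the dentate granule, CA3 and CA2 genes were highest in WT 4 instead. When arrays were weighted, CKO 3 had the lowest weight of the 8, at 0.35. CKO 3 had 6 of the 7 genes above their mean, CKO 1 and WT 4 had 5 each, and CKO 4 and WT 3 had 1 each. Pou3f1 and Man1a probe 1 were the closest pair, with a root mean square difference of 0.14 between their centred profiles, followed by Fibcd1 and Pou3f1 at 0.18. Fibcd1 and Lmo3 probe 1 were the farthest apart, at 0.48. These profiles share arrays, slides and scaling.

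**Figure D3:**
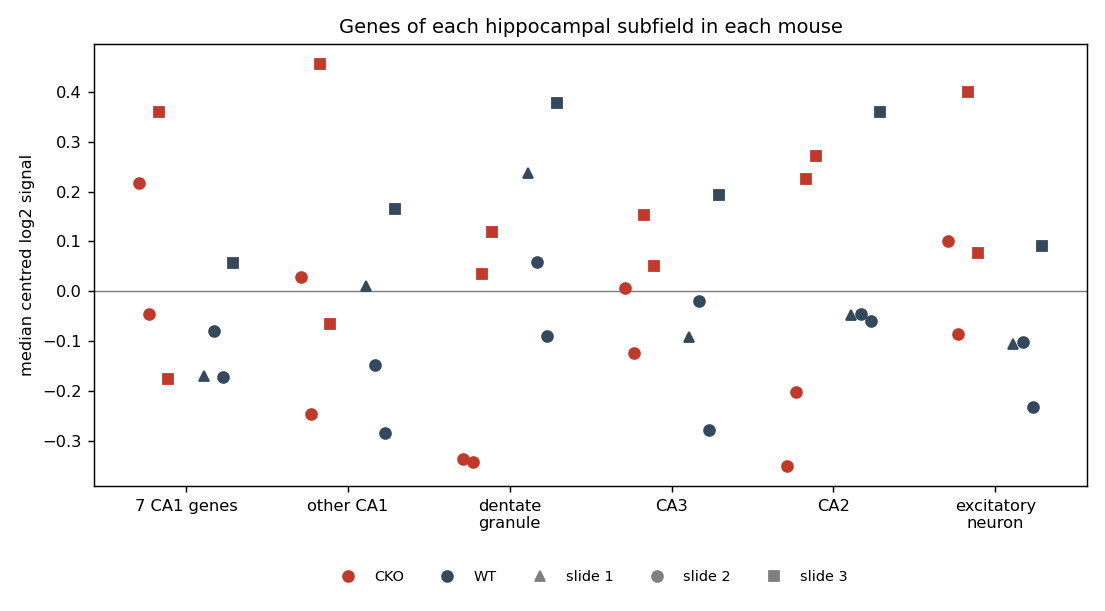
Median centred log2 signal in each mouse for the 7 CA1 genes and 5 other gene lists, with CKO left of WT and marker shapes for the slide; each gene was first centred on its mean over the 8 arrays. CKO 1 and CKO 2 have the lowest dentate granule medians, at -0.34 each, and CKO 3 the highest median of the 7 CA1 genes, at 0.36.

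Other subfields were set beside CA1 because their neurons carry the tag too. The 7 other CA1 genes had a median log2 difference of 0.20, with 4 above 0, 0 that passed and 0 with an unadjusted limma p under 0.05. Ccn3, a secreted matricellular protein, had the smallest p of them and a difference of 0.41. The 13 dentate granule genes had a median of -0.27, with 3 above 0, 0 that passed and 2 lower at an unadjusted limma p under 0.05, next to 3.35% of all probes. Over 24 alternatives the dentate median ran from -0.38 (without WT 3) to -0.077 (within slide 3), and that of the other CA1 genes from 0.020 (within slide 3) to 0.35 (median scaling), with 0.11 without CKO 3. The 2 dentate genes were Tdo2, which degrades tryptophan, at -0.73 (exact permutation p = 0.0286) and Prox1, the homeobox factor that sets granule cell identity, at -0.42 (exact permutation p = 0.0571). Probes in the signal deciles of Tdo2 and Prox1 had median differences of -0.33 and 0.11. The 8 CA3 genes had a median of 0.18 and the 7 CA2 genes -0.26, and 0 of either list passed. The CA3 median was -0.091 within slide 3 and 0.035 without CKO 1, and the CA2 median ran from -0.32 without WT 1 to 0.052 over probes well above background on all 8 arrays. In the CA3 list 1 gene was higher and 1 lower at an unadjusted p under 0.05, next to 2.02% higher and 3.35% lower over all probes. They were Bok, a relative of Bcl2, at 0.82 (exact permutation p = 0.0571) and Cdh24, a cadherin, at -0.79 (exact permutation p = 0.0286). Prox1 and Bok were named after their values were seen. In the CA2 list Amigo2 had the smallest p, with a difference of -0.76. Probes of its signal decile had a median of -0.58.

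The 7 CA1 genes and the dentate granule genes were then compared within each mouse. The median of the CA1 genes minus that of the dentate genes was 0.55, 0.30, 0.33 and -0.29 in CKO 1 to 4, against -0.41, -0.14, -0.081 and -0.32 in WT 1 to 4. CKO 1, 2 and 3 lay above every WT mouse, and CKO 4 lay among the WT mice. The CA1 and dentate medians behind these values were 0.22 and -0.34 in CKO 1, -0.045 and -0.34 in CKO 2, and 0.36 and 0.034 in CKO 3. In CKO 2 the CA1 median was thus below 0, and the positive value came from the dentate genes. The mean was 0.22 ± 0.36 in CKO and -0.24 ± 0.15 in WT (SD, n = 4 each). With the 7 other CA1 genes in place of the members the values were 0.37, 0.096, 0.42 and -0.19 in CKO 1 to 4, against -0.23, -0.21, -0.19 and -0.21 in WT 1 to 4. The median of the other CA1 genes alone was 0.028, -0.25, 0.46 and -0.067 in CKO 1 to 4. All these lists were chosen with earlier results known, so no test was made of the differences between them. The CA1 minus CA3 value was 0.067 ± 0.20 in CKO and -0.042 ± 0.11 in WT, and CA1 minus CA2 was 0.10 ± 0.42 in CKO and -0.14 ± 0.11 in WT (SD, n = 4 each). Counted from the dimmest, the 7 CA1 genes lay in signal deciles 6 to 10 and the dentate genes in deciles 2 to 9. The CA3 and CA2 genes lay in deciles 1 to 10. Differences between genotypes rose with signal, and the part of this in these values was not tested.

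Markers of other cells were measured beside these values. The summed signal of the astrocyte genes, in units of each array's 75th percentile, ran from 13.0 to 19.2 in CKO and 13.6 to 14.8 in WT. That of the oligodendrocyte genes ran from 41.3 to 45.5 in CKO and 38.5 to 52.1 in WT, and that of the microglia genes from 17.5 to 20.9 in CKO and 15.9 to 20.8 in WT. The interneuron genes ran from 53.3 to 85.5 in CKO and 53.7 to 74.3 in WT, a sum made up mostly by Lhx6, and the 6 others from 5.22 to 5.89 in CKO and 3.82 to 5.78 in WT. The endothelial genes ran from 0.95 to 1.43 in CKO and 1.09 to 1.48 in WT. All these ranges overlapped, and 0 genes of these lists passed. The median log2 difference was 0.16 for the astrocyte genes with 4 of 5 above 0, 0.13 for the oligodendrocyte genes with 5 of 6, 0.055 for the microglia genes with 4 of 6, 0.14 for the interneuron genes with 5 of 7 and -0.081 for the endothelial genes with 2 of 5. Within slide 3 the astrocyte and interneuron medians were -0.013 and -0.13. The gene with the smallest p was Aqp4 in the astrocyte list, at -0.30 and the one gene of its list below 0, and Mag in the oligodendrocyte list, at 0.53 with all CKO mice above all WT mice, as in 1.68% of all probes. It was Cx3cr1 in the microglia list, at 0.44, Pvalb in the interneuron list, at 0.54, and Pecam1 in the endothelial list, at -0.86. Probes in the signal decile of Pecam1 had a median of -0.24. Genes of the subiculum and cortical layers had a median difference of -0.38 over 5, with Fezf2 at -0.38 and all its CKO mice below all WT mice, as in 1.62% of all probes. That median was -0.19 without CKO 3, -0.25 without CKO 1 and -0.0062 within slide 3. The excitatory neuron genes had a median of 0.20 over 8 and -0.053 within slide 3, with Nrgn, a calmodulin-binding protein of dendrites, at 0.58. The part of these cells in the values of the CA1 genes was not tested.

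Genes with the most similar profile were sought among 22248 named probes well above background on all 8 arrays, by the root mean square difference of centred log2 values over the 8 mice. Fibcd1 was closest to Adcy9 (0.063) and U2af2 (0.073), and Mpped1 to Smpd1 (0.035) and Supt5 (0.051). Wfs1 was closest to Mdh1b (0.050) and Il1rapl1 (0.071). Pou3f1 was closest to Bcl6 (0.063) and Rell1 (0.085), and Man1a probe 1 to Rell1 (0.078) and Scarb2 (0.084), so that Rell1 was near both. Gpr161 was closest to Shb (0.086) and Gm16894 (0.087), and Lmo3 probe 1 to Mtr (0.075) and Endov (0.094). A profile with no change over the mice would lie 0.34 from Fibcd1 and 0.17 from Wfs1. With this many candidates some close profiles arise in any data.

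**Figure D4:**
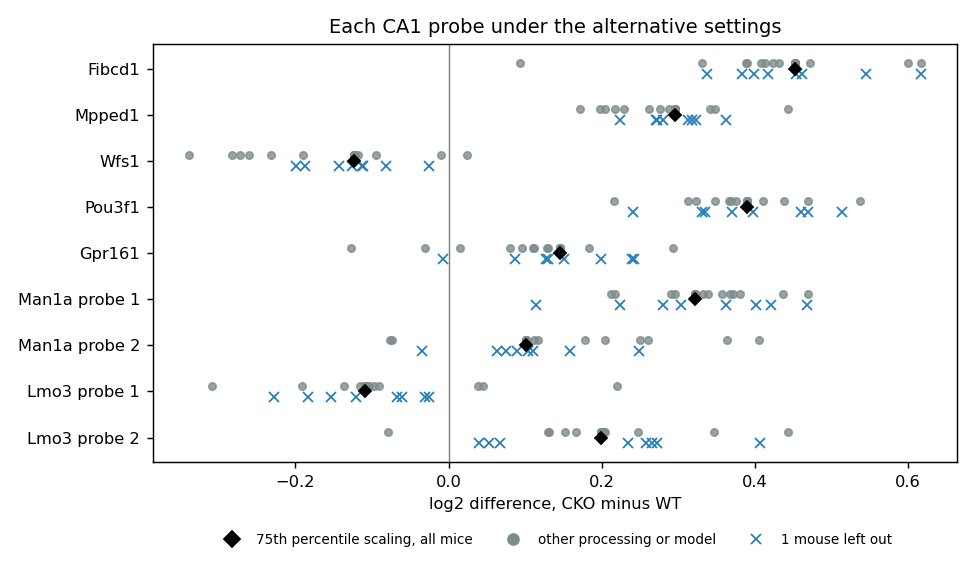
Log2 difference, CKO minus WT, of each probe with 75th percentile scaling and all mice (black diamonds), under other processing or models (grey circles) and with 1 mouse left out (blue crosses). Fibcd1, Mpped1, Pou3f1 and Man1a probe 1 stay above 0 throughout, and the other 5 probes cross 0 in at least 1 alternative.

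Fibcd1 ranged from 0.094 to 0.62 over 26 alternatives. Mpped1 ranged from 0.17 to 0.44, Pou3f1 from 0.22 to 0.54 and Man1a probe 1 from 0.11 to 0.47. For Wfs1 the range was -0.34 to 0.024, with 25 of 26 below 0. None of the 9 probes passed a limma adjusted p of 0.05 in any alternative. Over all probes the share that passed was 0% in 18 of the 26 and above 0% in 8. It was 0.0113% with normexp, 0.00539% with no filter on dim probes, 0.00516% with probes well above background on all 8 arrays, 0.00677% with a trended and robust variance, 0.00339% with one probe per gene name and with the mean of a gene's probes, and 0.00226% with the slide as a random block and without WT 2. In a limma fit of sex by genotype 0 of the 9 probes passed for the interaction, with unadjusted p-values from 0.399 to 0.940 (adjusted p = 1.00). Each group held 1 female, so this fit had little precision.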

How the data were processed

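RNA on tagged ribosomes of 8 hippocampi was amplified and labelled with Cy5, per the labels' protocols. Agilent Feature Extraction 11.5, per the submitters' processing notes, gave the deposited scanner intensity of each spot, with background subtracted and detrended, per the file headers, which give mm9 coordinates. The authors deposited a second table of intensity per spot on a linear scale. It is blank for 7359 to 11803 spots per array, its medians run from 1263 to 1987, and no source used here gives its normalization or centring.

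The groups and replicate numbers come from the titles, and the mice are labelled as biological replicates. Spots with outlier flags were left out, spots of one probe averaged, and log2 of the processed signal taken minus each array's 75th percentile. Of 55681 probes, 44316 were well above background on at least 4 of 8 arrays. The CKO and WT mice were set against each other by limma 3.58.1 (R 4.3.3), with two-sided p-values adjusted by Benjamini-Hochberg across every probe tested, and single probes also with an exact permutation test over 70 splits. Members and gene lists were chosen with earlier results of these data known. A gene outside the members stands for its probe with the highest mean, and lists name their gene with the smallest p, or any member of a list of relatives. RefSeq accessions named 28331 probes. The method was tested on simulated data with independent noise and known shifts in some probes. The simulation held no slide effect and no trend of differences with signal, so it did not test these. Same-numbered mice did not deviate together, with correlations from -0.39 to 0.34, and the main fit treated the mice as unpaired. These correlations cannot show that no pairing exists. Alternatives are listed in the closing section. The number of arrays limits the precision.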

Additional observations from a re-analysis of the deposited data

Results flagged for a closer look

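Lmo3 probe 2 in WT 3 stood apart from the other WT mice, at -0.54 against 0.042, 0.13 and 0.11 in WT 1, 2 and 4. The gap to its nearest neighbour was 0.863 of the group's whole range, above Dixon's critical value for 4 samples. Of 18 groups of 4 checked over the 9 probes it was the single one, and chance gives about 1 in 20. CKO 2 had a like value, at -0.48, so the groups overlapped with and without WT 3, and the log2 difference without WT 3 was 0.040.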

How the results depend on the processing

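The alternatives were median scaling, quantile normalization, normexp with an offset of 50, the authors' deposited values, other filters and probe summaries, array weights, a prior variance with trend and robust fitting, slides (within each, or as fixed and as random block), sex, the replicate number, and each mouse left out. Quantile normalization with the slide as a fixed block was chosen after seeing the data. The number of probes past a limma adjusted p of 0.05 was 0, and it was 0 in 18 of 26 alternatives. It was 5 with normexp, 3 with no filter on dim probes, 2 with probes well above background on all 8 arrays, 1 with one probe per gene name, 1 with the mean of a gene's probes, 3 with a trended and robust prior variance and 1 with the slide as a random block. With 1 mouse left out it ran from 0 to 1. No member was among these. The replicate block gave 0 calls and a median of 0.30 for the 7 genes, and it changed no member's call. Of the 4 CKO mice, 0 correlated best with the WT mouse of the same number, which is a hint from the data and not from the design.

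The median difference of the 7 genes ran from 0.13 to 0.44 over the alternatives, and from 0.13 (without CKO 3) to 0.36 (without CKO 4) with 1 mouse left out. It was 0.44 with median scaling, which moves the median of all probes from -0.11 to 0.041. Single probes changed sign in these settings. With median scaling Wfs1 was 0.024 and Lmo3 probe 1 0.039. With the mean of its probes Lmo3 was 0.045. With array weights Man1a probe 2 was -0.074. Within slide 2 Man1a probe 2 was -0.076 and Lmo3 probe 2 -0.080, and within slide 3 Gpr161 was -0.13 and Lmo3 probe 1 0.22. With quantile normalization and the slide as a block Gpr161 was -0.031. Leaving out 1 mouse gave Gpr161 from -0.0070 to 0.24 and Man1a probe 2 from -0.034 to 0.25. The cause was not tested. All members were well above background on all arrays, and 4 mice per group limit the precision. Medians of the other gene lists also moved, as given beside them.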

Other observations

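CKO 4 went against the other CKO mice in several members. It had the lowest Wfs1 signal of the 8 mice (3.01) and the lowest CKO values of Fibcd1 (0.51), Pou3f1 (1.36), Mpped1 (4.23) and Gpr161 (1.34), but the highest Lmo3 signal of the 8 by both probes (0.57 and 0.58). Its Ctcf signal was -2.01, next to -2.55, -2.40 and -1.96 in CKO 1 to 3, and the part of this in its values was not tested. Without CKO 4 the log2 differences were 0.62 for Fibcd1, 0.51 for Pou3f1 and -0.026 for Wfs1.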
